A study of Homo sapiens with 6 samples.

Results

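The actin cytoskeleton and thymosin genes were 10 genes of the 10072 in a long-read cDNA count table. They were taken by gene symbol: TMSB10, TMSB4X, ACTB, ACTG1, PFN1, CFL1, MYL6, MYL12A, MYL12B and TPM1. The choice was made with earlier results of these data known. All 10 had counts and all 10 passed the filter on low counts, which left 3888 genes in the test. They were spread over 78 transcript models. The table came from Calu-6 cells, an established human lung cancer line of wild-type genotype by its label, that had received, at 10 nM and for 48 h, either a non-silencing siRNA (siControl, n = 3 libraries) or of an siRNA against the junction of exons 1 and 5 of TERT, which marks the splice variant Delta 2-4 (siDelta2-4, n = 3 libraries). The methods of the study describe treatment of a Calu-6 line that stably carried an empty expression vector. All 6 column names bear the word for that line, although the labels give a wild-type genotype and name no vector. The study calls its replicates biological, while the labels do not say whether the libraries of a group came from separate cultures, so p-values measure the spread between these libraries, part of which may be technical. The comparison asked which of these genes changed when the Delta 2-4 variant was targeted. TERT itself was not analysed here, so the knockdown was not checked.

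Actin monomers assemble into filaments that give a cell its shape, adhesion and movement. Thymosin beta proteins hold monomers in reserve, profilin feeds them to growing ends, and cofilin severs old filaments. Tropomyosins lie along the filament, and the myosin light chains belong to the myosin motors that pull on it. Genes for actin and several of its partners are known targets of serum response factor, which binds a sequence called the CArG box.

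The windows around the transcription starts of ACTG1 and of both thymosin genes are printed here because they show which of these abundant genes carries such a box near its start. RefSeq windows on GRCh38.p14, from 250 bases before to 50 bases after the start, were matched for 9 of the 10 genes, and ACTB had no entry. Capitals mark CCATATATGG (a CArG box) in ACTG1 at chr17:81512750-81513049 on the minus strand and TATATAA in TMSB10 at chr2:84905406-84905705 on the plus strand. The window of TMSB4X at chrX:12974860-12975159 on the plus strand is shown as that of the other thymosin gene and had neither.
ACTG1: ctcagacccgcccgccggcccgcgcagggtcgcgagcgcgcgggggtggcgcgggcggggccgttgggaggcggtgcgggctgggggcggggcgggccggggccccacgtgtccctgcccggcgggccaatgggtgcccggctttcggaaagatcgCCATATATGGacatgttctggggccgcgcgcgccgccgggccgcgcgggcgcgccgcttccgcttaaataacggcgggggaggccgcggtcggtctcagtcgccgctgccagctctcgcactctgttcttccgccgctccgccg
TMSB10: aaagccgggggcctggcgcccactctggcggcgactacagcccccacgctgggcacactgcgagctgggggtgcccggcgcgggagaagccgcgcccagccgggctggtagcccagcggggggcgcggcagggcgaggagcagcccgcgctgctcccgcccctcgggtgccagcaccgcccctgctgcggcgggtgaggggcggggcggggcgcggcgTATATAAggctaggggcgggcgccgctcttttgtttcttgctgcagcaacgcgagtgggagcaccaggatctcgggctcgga
TMSB4X: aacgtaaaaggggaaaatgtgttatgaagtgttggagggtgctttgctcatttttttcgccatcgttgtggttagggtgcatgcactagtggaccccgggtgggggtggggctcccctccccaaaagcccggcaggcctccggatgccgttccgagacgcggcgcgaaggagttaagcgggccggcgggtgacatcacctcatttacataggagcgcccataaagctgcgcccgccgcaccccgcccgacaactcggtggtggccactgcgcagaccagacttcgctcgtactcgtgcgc

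The CArG box, searched as CC, 6 bases that are A or T, then GG, began 94 bases before the start of ACTG1. It was in 1 of the 13 RefSeq windows of these genes and in 1.29% of 35116 RefSeq windows of the same length. The TPM1 window, at chr15:63048239-63048538, does not cover the start of the leading TPM1 model, TPM1-206, at 63042685. TATATAA began 32 bases before the start of TMSB10. It was in 2 of the 13 windows, the other being a window of MYL12A, and in 2.57% of all windows. All searches covered both strands. These matches describe the letters only.

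The libraries held 1037468 to 1106413 counts in siControl and 1070009 to 1309241 in siDelta2-4. The labels could not be matched to single columns, so the libraries are told apart by the size of their total (highest, middle or lowest in the group), and values per library follow that order. The siControl library with the lowest total stood apart on the first principal component of log2 CPM (CPM, counts scaled to the TMM-adjusted total of the genes that passed the filter), which held 42.9% of the variance. It lay at -0.360, the other siControl libraries at -16.9 and -15.2, and the siDelta2-4 libraries between 8.71 and 13.8. The epithelial markers summed to 280 to 295 CPM in siControl and 276 to 334 CPM in siDelta2-4, with 5 of 6 counted and CDH1 not listed. The mesenchymal markers summed to 124 to 146 CPM and 154 to 168 CPM, with 2 of 3 counted. Muscle markers, of interest since muscle has actins of its own, reached at most 0.958 CPM, with ACTA2, ACTC1, ACTA1, DES, MYH11 and CNN1 not listed. Fibroblast markers reached at most 4.06 CPM (1 of 5 counted) and the 3 endothelial markers were not listed. Leukocyte markers summed to 59.5 to 70.2 CPM in siControl and 44.5 to 50.6 CPM in siDelta2-4, with 2 of 5 counted and PTPRC, CD3E and LCP1 not listed. The part of these shifts in the results was not tested.

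In siDelta2-4, 3 of the 10 genes rose and none fell. Tropomyosin 1 (TPM1) was 2.38-fold higher, gamma actin (ACTG1) 1.34-fold higher and thymosin beta 4 (TMSB4X) 1.16-fold higher. The other 7 genes did not pass the test. In bulk libraries a change in the make-up of the cells and a change in RNA per cell cannot be told apart. Of all 3888 genes tested by edgeR's quasi-likelihood test, 272 were higher (7.00%) and 232 lower (5.97%) at an adjusted p under 0.1. The median log2 fold change was 0.11 over the 10 genes and 0.03 over all genes tested. By CPM alone, 4 of the 10 genes were higher with ranges that did not overlap, against 547 of all genes (14.1%), and 1 was lower, against 463 (11.9%). Together the 10 genes took 1.02% ± 0.0304 of all siControl counts and 1.17% ± 0.0106 of all siDelta2-4 counts (SD, n = 3 each). The groups did not overlap, and the exact two-sided permutation p was 0.1, the smallest that 3 libraries against 3 can give.

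**Figure D1:**
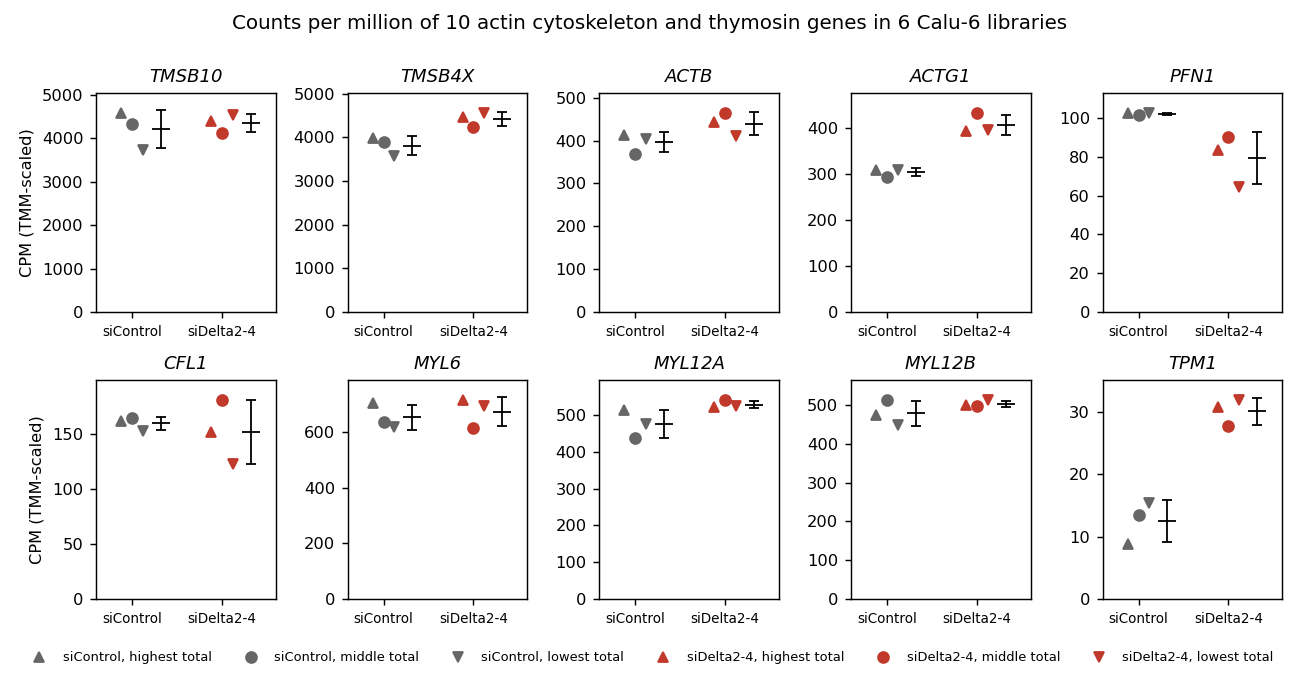
CPM (TMM-scaled, linear axis from 0) of each of the 10 genes in the 3 siControl (grey) and 3 siDelta2-4 (red) libraries, with marker shape giving the rank of the library's total and the black bar the mean ± SD. The siDelta2-4 points of TPM1 lie between 27.6 and 31.8 CPM, all above the siControl points, and those of PFN1 between 64.6 and 90.2 CPM, all below.

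TMSB10 and TMSB4X, the genes of the actin monomer-binding thymosins beta 10 and beta 4, held 75.7% of the counts of the 10 genes. TMSB4X lies on GRCh38 chrX:12975110-12977227, plus strand. It had 3981, 3880 and 3562 CPM in the siControl libraries of highest, middle and lowest total, and 4454, 4234 and 4552 CPM in the siDelta2-4 libraries in the same order. Every siDelta2-4 library was above every siControl library. The mean went from 3808 ± 219 to 4413 ± 163 CPM (SD, n = 3 each), a log2 fold change of 0.21 ± 0.08 (SE), with an edgeR adjusted p of 0.0796. That call was lost when any of the 6 libraries was left out, with log2 fold changes of 0.14 to 0.24 and adjusted p-values of 0.113 to 0.254, and in DESeq2 (adjusted p = 0.107). These values leave out the processed copy TMSB4XP8, with 247 counts in the siControl library of highest total and 0 to 2 in each other library. The gene was not tested with the counts of its copies added.

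TMSB10, at chr2:84905656-84906671 on the plus strand, was the gene with the most counts of the 10. It had 4581, 4333 and 3737 CPM in the siControl libraries and 4395, 4135 and 4545 CPM in the siDelta2-4 libraries. The groups overlapped, since the highest value was in siControl. The mean was 4217 ± 434 CPM in siControl and 4359 ± 208 CPM in siDelta2-4 (SD, n = 3 each). The log2 fold change was 0.05 ± 0.08 with an edgeR adjusted p of 0.778, and it was -0.05 without the siControl library of lowest total.

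The thymosin pair was compared within each library, where scaling between libraries plays no part. TMSB10 held 53.5%, 52.8% and 51.2% of the counts of the pair in siControl and 49.7%, 49.4% and 49.96% in siDelta2-4. The mean was 52.5% ± 1.18 and 49.7% ± 0.278 (SD, n = 3 each), a difference of -2.81 percentage points. The groups did not overlap (two-sided exact permutation p = 0.1, or 0.15 adjusted over the 3 pairs). A processed copy of TMSB4X, TMSB4XP8 at chr4:90838903-90839037, had 247 counts in the siControl library of highest total and 0 to 2 in each other library. Reads of TMSB4X and of its copies can be split by the counting, and with the counts of retrocopies added the difference was -2.32 percentage points.

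Beta actin (ACTB) and gamma actin (ACTG1) are the 2 actins of non-muscle cells. ACTG1, at chr17:81509413-81523847 on the minus strand, had 310, 294 and 308 CPM in siControl and 394, 433 and 397 CPM in siDelta2-4. All siDelta2-4 libraries were above all siControl libraries. The mean went from 304 ± 8.6 to 408 ± 21.9 CPM (SD, n = 3 each), a log2 fold change of 0.42 ± 0.09 with an edgeR adjusted p of 0.00543. The call held in every alternative run, at 0.41 without the siControl library of lowest total (edgeR adjusted p = 0.00110), and after removal of the trend on transcript length the log2 fold change was 0.26 with an adjusted p of 0.0797. The window printed above with a CArG box belongs to this gene, and a part of the box in the rise was not tested.

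ACTB, at chr7:5526409-5563902 on the minus strand, had 413, 369 and 404 CPM in siControl and 444, 464 and 411 CPM in siDelta2-4. The groups overlapped through the siDelta2-4 library of lowest total. The mean was 396 ± 23.3 and 440 ± 26.7 CPM (SD, n = 3 each), with a log2 fold change of 0.15 ± 0.09 and an edgeR adjusted p of 0.336. ACTB held 57.1%, 55.6% and 56.7% of the actin pair in siControl and 53.0%, 51.7% and 50.9% in siDelta2-4. The shares did not overlap between groups, and the difference was -4.64 percentage points (two-sided exact permutation p = 0.1, or 0.15 adjusted over the 3 pairs). Of 12 annotated processed copies of ACTB and 21 of ACTG1 1 had counts. It was ACTG1P25, with 111, or 4.59% of those of ACTG1, and with it added the difference was -3.93 percentage points.

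**Figure D2:**
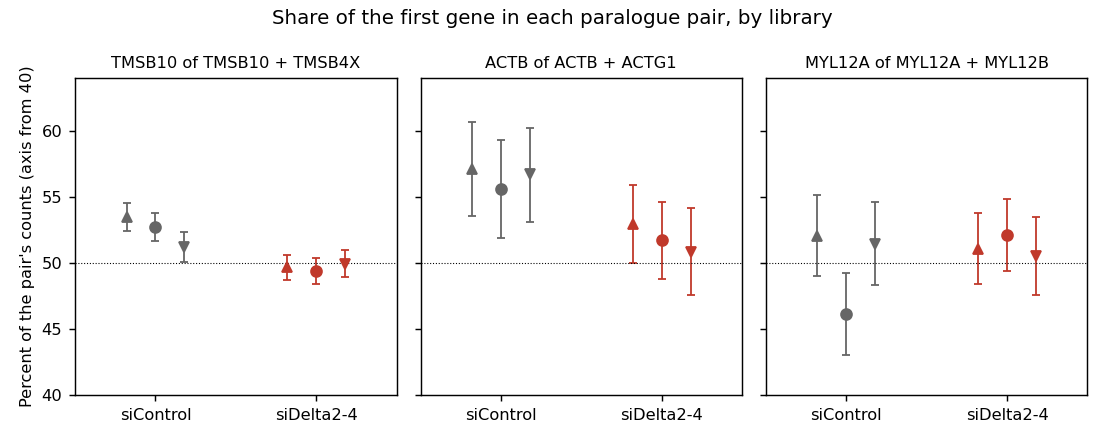
Percent of each paralogue pair's counts held by the first gene, per library (grey, siControl; red, siDelta2-4; up triangle, circle and down triangle, highest, middle and lowest total), on an axis from 40 to 64 percent, with bars for the 95% Wilson interval of the share, which covers counting error only. The siDelta2-4 shares of TMSB10 and of ACTB lie below all siControl shares, and those of MYL12A overlap.

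PFN1 and CFL1, the genes of profilin 1 and cofilin 1, were the members of monomer turnover. PFN1, at chr17:4945652-4949061 on the minus strand, had 102, 102 and 103 CPM in siControl and 83.6, 90.2 and 64.6 CPM in siDelta2-4. Each siDelta2-4 library was below each siControl library, the siDelta2-4 library of lowest total most of all. The log2 fold change was -0.35 ± 0.14 with an edgeR adjusted p of 0.125, so it did not pass. It passed without the siControl library of lowest total (adjusted p = 0.0622), with DESeq2 size factors (0.0935) and on known models alone (0.0875).

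CFL1, at chr11:65823022-65862026 on the minus strand, had 162, 164 and 152 CPM in siControl and 152, 180 and 123 CPM in siDelta2-4. The siDelta2-4 libraries held both the highest and the lowest value. Its log2 fold change was -0.07 ± 0.13 with an edgeR adjusted p of 0.806.

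TPM1 codes for tropomyosin 1, which runs along the filament and sets which partners bind it. The gene lies at chr15:63042620-63071915 on the plus strand. Its siControl libraries held 9, 14 and 16 counts and its siDelta2-4 libraries 40, 34 and 34, or 8.78, 13.4 and 15.3 CPM against 30.7, 27.6 and 31.8 CPM. The lowest siDelta2-4 library was above the highest siControl library. The mean went from 12.5 ± 3.37 to 30.1 ± 2.18 CPM (SD, n = 3 each), a log2 fold change of 1.25 ± 0.27 with an edgeR adjusted p of 0.00418. It was the lowest of the 10 genes, with 147 counts in all, and a filter of at least 10 counts in every library removed it. DESeq2 gave it no adjusted p (unadjusted p = 0.00108, log2 fold change 1.24). In all 14 alternatives with an adjusted p it remained called, at log2 fold changes of 1.04 to 1.40, the highest of them without the siControl library of lowest total (edgeR adjusted p = 0.000505).

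The myosin light chain genes did not pass the test. MYL6 codes for an essential light chain, and MYL12A and MYL12B for regulatory light chains whose phosphorylation switches on non-muscle myosin. MYL6, at chr12:56158346-56163496 on the plus strand, had 704, 637 and 619 CPM in siControl and 714, 614 and 692 CPM in siDelta2-4, with a log2 fold change of 0.04 ± 0.09 and an edgeR adjusted p of 0.814. The groups overlapped.

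MYL12A and MYL12B are neighbours on chromosome 18, at chr18:3247481-3256236 and chr18:3261479-3278461, both on the plus strand. MYL12A had 515, 438 and 475 CPM in siControl and 521, 540 and 523 CPM in siDelta2-4. These groups did not overlap, but the gap was narrow, and the log2 fold change of 0.15 ± 0.09 had an edgeR adjusted p of 0.325. MYL12B had 474, 512 and 448 CPM in siControl and 499, 497 and 512 CPM in siDelta2-4, which overlapped (log2 fold change 0.07 ± 0.09, edgeR adjusted p = 0.680). MYL12A held 49.9% ± 3.28 of the siControl counts of the pair and 51.3% ± 0.799 of its siDelta2-4 counts (SD, n = 3 libraries, p = 0.8 in the exact permutation test).

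Levels were compared between genes as CPM per kilobase of the mean model length. A long read counts a cDNA molecule whatever its length, so the order by CPM stands in the values above. Per kilobase in siControl the order was TMSB10 (9060 ± 932), TMSB4X (5911 ± 339), MYL6 (927 ± 63.7), MYL12A (499 ± 40.1), MYL12B (421 ± 28.3), ACTB (251 ± 14.8), ACTG1 (188 ± 5.32), CFL1 (131 ± 5.12), PFN1 (119 ± 0.526) and TPM1 (7.53 ± 2.03; SD, n = 3 each). No neighbours in this order overlapped per kilobase in siControl. By CPM in siControl, however, TMSB10 (3737 to 4581) overlapped TMSB4X (3562 to 3981), and MYL12A (438 to 515) overlapped MYL12B (448 to 512). Counts on the opposite-strand genes described below were not added. In siDelta2-4 the order per kilobase was kept, but ACTB (261 to 294) overlapped ACTG1 (244 to 268), and CFL1 (101 to 148) overlapped PFN1 (74.9 to 105).

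The genes mostly appeared as models that matched a reference transcript. Such known models held 93.2% of the counts of the 10 genes, against 45.3% of the whole table and 59.5% of the counts of annotated genes. ISM models, which match only part of a known transcript, held 5.08%, and models with new combinations of known splice sites (NIC) or with new splice sites (NNC) held 1.40% and 0.305%. The known share ran from 63.3% ± 1.52 in MYL6 to 98.9% ± 0.157 in TMSB4X in siControl (SD, n = 3). All models of PFN1, CFL1 and TPM1 were known. The known share was lower in siDelta2-4 without overlap in 2 of the other 7 genes, TMSB10 (96.2% to 96.0%) and MYL12A (96.7% to 95.6%), each with an exact permutation p of 0.1 and an adjusted p of 0.35. Of 623 genes with at least 100 counts and both kinds of model, 11.2% did not overlap. The table listed unannotated models only where each siDelta2-4 library had at least 5 counts, while in siControl they could be at 0.

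**Figure D3:**
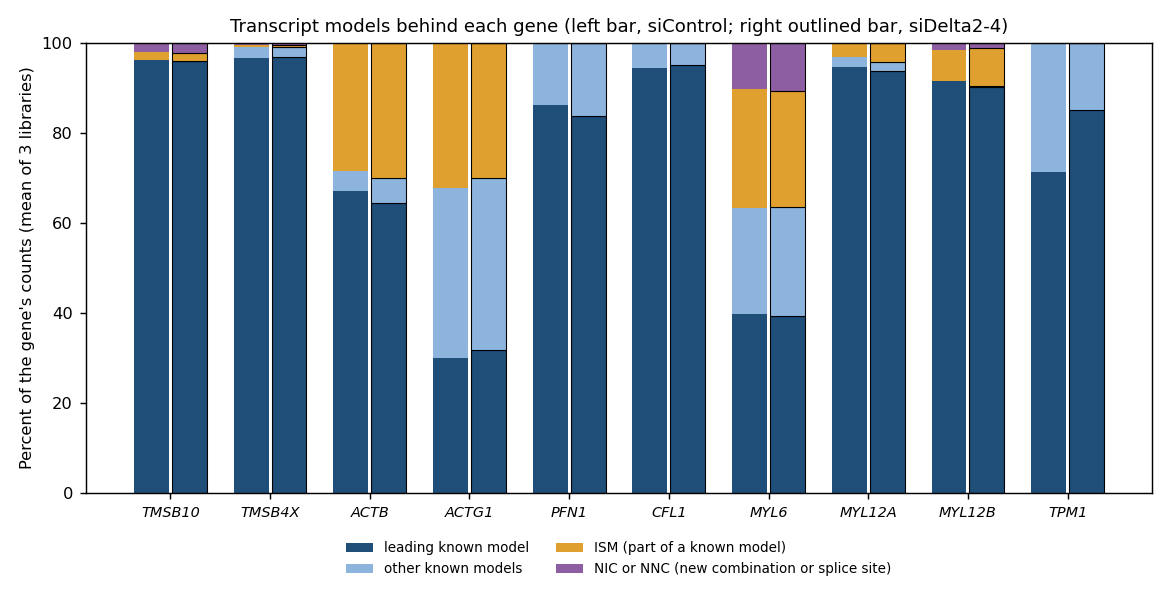
Mean percent of each gene's counts (linear axis, 0 to 100, 3 libraries) on its leading known model, other known models, ISM models and NIC or NNC models, with siControl on the left and siDelta2-4 on the right of each pair. Known models fill all of PFN1, CFL1 and TPM1, and MYL6 has the largest share of other models.

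Of the 78 models, 42 were tested and 4 were higher at an adjusted p under 0.1 by edgeR, all of them known models of the 3 genes that rose. Over all 6768 models tested, 267 were higher (3.95%). TMSB4X-204, 3 exons and 622 bases, was counted 3963, 3900 and 3594 times under siControl and 5603, 5051 and 4724 times under siDelta2-4, a log2 fold change of 0.24 ± 0.06 with an edgeR adjusted p of 0.0195. TPM1-206, 9 exons and 1717 bases, was counted 6, 11 and 11 times under siControl and 35, 31 and 26 times under siDelta2-4, a log2 fold change of 1.52 ± 0.30 with an edgeR adjusted p of 0.00274. ACTG1-205 and ACTG1-213 were higher as well, at log2 fold changes of 0.53 ± 0.13 (edgeR adjusted p = 0.0144) and 0.45 ± 0.13 (0.0521).

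ACTG1-205 and ACTG1-213 had 753 and 748 counts in all. ACTG1-213 differs by an intron of 149 bases (chr17:81510330-81510478) spliced out of the last exon of ACTG1-205, and Gencode lists it as a target of nonsense-mediated decay. Of the counts of both models it held 50.7% ± 1.58 in the siControl libraries and 49.1% ± 3.03 in the siDelta2-4 libraries (SD, n = 3 each; p = 0.5 in the exact permutation test).

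The leading models of the other genes were TMSB10-201 (27655 counts), ACTB-217 (1843), PFN1-201 (515), CFL1-201 (992), MYL6-207 (1761), MYL12A-201 (3183) and MYL12B-201 (2991), and none of these was called. MYL6 has a splice choice in the annotation, an exon of 45 bases (chr12:56160626-56160670) that is in MYL6-218 and not in MYL6-207. The model with the exon held 30.9% ± 2.60 of their joint counts in the siControl libraries and 32.5% ± 2.67 in the siDelta2-4 libraries (SD, n = 3 each, p = 0.5 by exact permutation). Among TPM1 models TPM1-206 held 75.7% ± 13.9 and 87.6% ± 6.35 of its sum with TPM1-208 (exact two-sided permutation p = 0.3). Relative use of the models within a gene was tested by edgeR in 8 of the 10 genes and called in 0 of them, and 0 of them had an unadjusted p under 0.05. Of all 1132 genes tested for use, 7 were called (0.618%).

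Annotated genes on the opposite strand had counts close to those of several members, and the counting is not stated to use strand, so reads of the partners cannot be told apart. TRABD2A spans TMSB10 on the other strand and had 28229 counts, 0.981 times those of TMSB10. Of these 27172 were on a single unannotated model of 3 exons and 817 bases, classed as ISM. TMSB10-201 also has 3 exons but is 461 bases long. The log2 fold change of TRABD2A was -0.02 ± 0.08 (edgeR adjusted p = 0.891). SNX32, opposite CFL1, had 1078 counts, 1.03 times those of CFL1. MYL12-AS1, a long non-coding RNA gene between MYL12A and MYL12B that overlaps both, had 3176 counts, 0.939 and 0.964 times those of its neighbours. MUS81, which also overlaps CFL1, had 1 count.

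TPM1-AS, a long non-coding RNA gene opposite TPM1, was counted 5, 11 and 14 times under siControl and 27, 34 and 15 times under siDelta2-4. It rose with a log2 fold change of 1.12 ± 0.34 and an edgeR adjusted p of 0.0437. All of its 106 counts were on 1 unannotated model of 9 exons and 1677 bases, beside the 9 exons and 1717 bases of TPM1-206. With the counts of the opposite gene added to TMSB10, CFL1 and TPM1, the log2 fold change of TPM1 was 1.20 with an edgeR adjusted p of 0.00110. MYL6B-AS1, singled out after its values were seen, does not overlap MYL6 but ends 126 bases before it and had 4791 counts, 1.08 times those of MYL6.

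**Figure D4:**
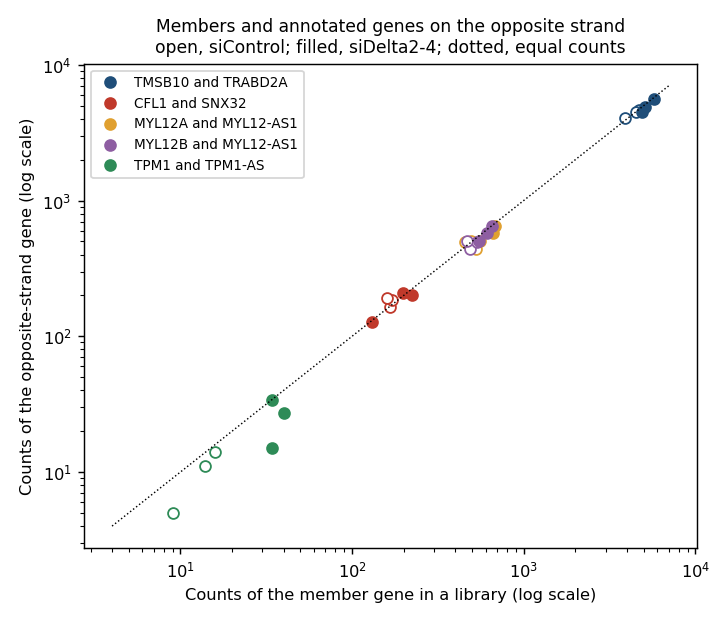
Counts of each member (log axis) against those of the annotated gene on its opposite strand (log axis) in the 6 libraries, with open points for siControl, filled points for siDelta2-4 and a dotted line for equal counts. The pairs of TMSB10, CFL1, MYL12A and MYL12B lie near the line over their whole range, and TPM1-AS lies on or below it.

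The rest of the actin pathway was taken from lists of 116 other genes, of which 69 had counts and 25 passed the filter. Of these 25 genes 4 rose and 1 fell by edgeR at an adjusted p under 0.1, beside 7.00% higher and 5.97% lower of all genes tested. Their median log2 fold change was 0.24, and 18 of the 25 were above 0, beside 2094 of all 3888 genes tested. Tropomyosin 2 (TPM2) was counted 39, 49 and 72 times under siControl and 126, 93 and 90 times under siDelta2-4, and its log2 fold change was 0.74 ± 0.18 with an edgeR adjusted p of 0.0115. It kept the call in all 15 alternatives. TPM3 had a log2 fold change of 0.37 ± 0.21 and did not pass (edgeR adjusted p = 0.300). The myosin heavy chain gene MYH9 had 4 counts in all and was not tested.

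Among nucleation genes 1 of 7 tested rose. ARPC1A, a subunit of the Arp2/3 complex that starts filament branches, had a log2 fold change of 0.39 ± 0.12 (edgeR adjusted p = 0.0534). The call was lost in 3 of 6 fits with a library left out (siControl middle, siDelta2-4 highest or middle total, at 0.31 to 0.38 and adjusted p-values of 0.159 to 0.267), with no filter, with the length trend removed, with the replicate block and under DESeq2. ARPC3, the gene with the most counts there (2153), was at 0.19 ± 0.10 (edgeR adjusted p = 0.240). Among capping and severing genes 1 of 3 tested rose, CAPG, which caps the growing end, at 0.55 ± 0.17 (edgeR adjusted p = 0.0437). The call was lost in 4 of 6 fits with a library left out (siControl or siDelta2-4, highest or middle total, at 0.45 to 0.54 and adjusted p-values of 0.136 to 0.216), with the length trend removed, on known models alone and under DESeq2. Among bundling and linkage genes 1 of 3 tested fell, TAGLN2 (transgelin 2, an actin-binding protein), at -0.40 ± 0.14 (edgeR adjusted p = 0.0722). No other list had a lower call, and that of TAGLN2 was lost in 4 of 6 fits with a library left out (without the siControl library of lowest total and without each siDelta2-4 library, at log2 fold changes of -0.43 to -0.24 and adjusted p-values of 0.137 to 0.225), with library totals alone, with the replicate block and under DESeq2.

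No gene of monomer turnover (3 tested) passed, although 2 of them had log2 fold changes above 0 and the median was 0.37. Destrin (DSTN), a relative of cofilin, had a log2 fold change of -0.10 ± 0.14 (edgeR adjusted p = 0.705). The 12 genes of serum response factor, its cofactors and its targets had counts for 5, and none passed the filter. FHL2 had the most of them, 23 counts in all. ANKRD1 was counted 0, 1 and 2 times under siControl and 5, 8 and 5 times under siDelta2-4. With no filter on low counts ANKRD1 was called by edgeR. The counts of FHL2, FHL1, IER2 and FOS overlapped between the groups. Of the 5 genes only FOS had a lower mean in siDelta2-4, at 0.27 CPM against 0.65 CPM in siControl. A part of serum response factor in these values was not tested.

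**Figure D5:**
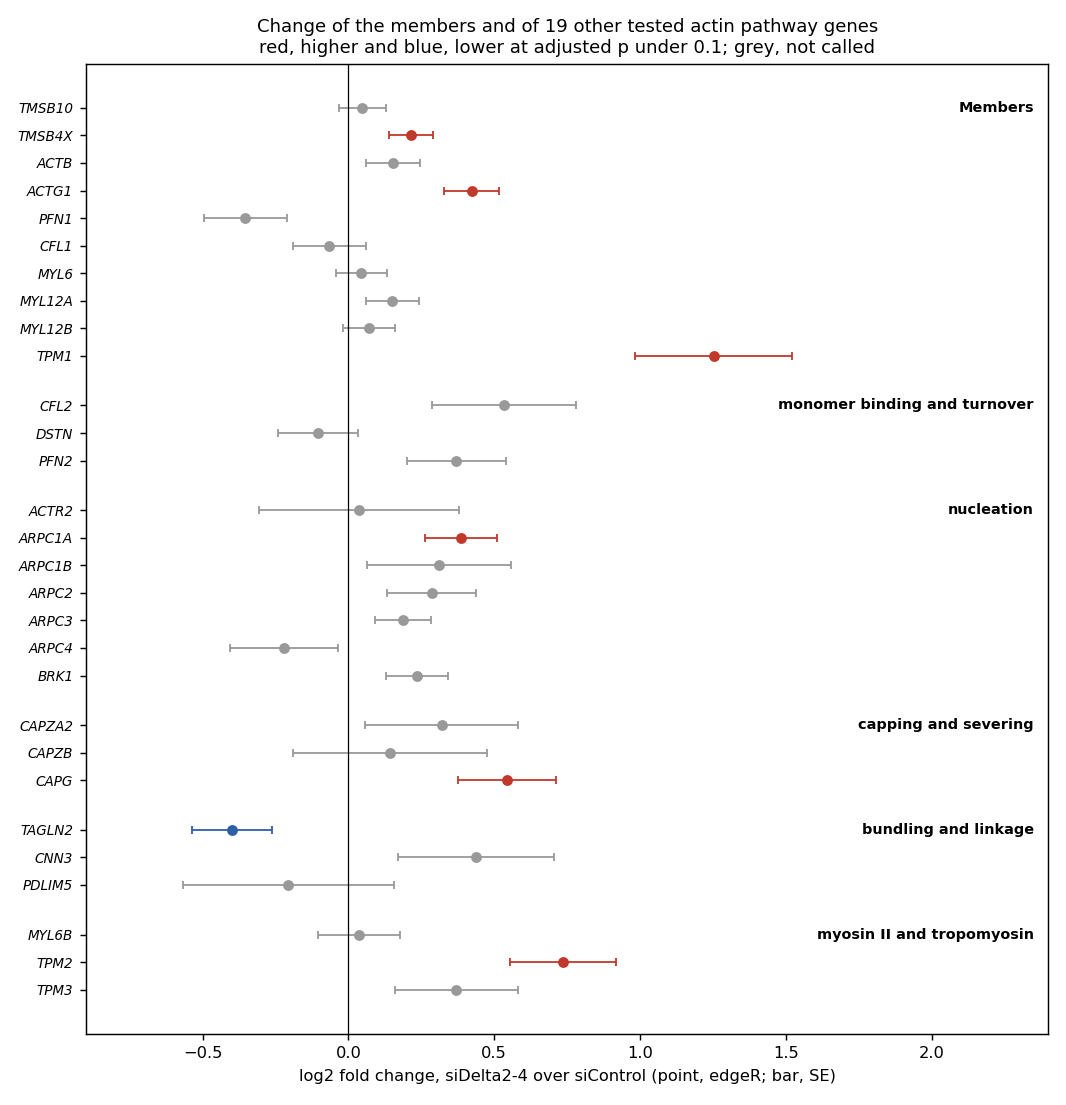
Log2 fold change of siDelta2-4 over siControl (linear axis; points from edgeR, bars the SE) for the 10 genes and 19 of the other actin pathway genes tested, coloured red where higher and blue where lower at an adjusted p under 0.1. TPM1 lies farthest right at 1.25, followed by TPM2 at 0.74, and TAGLN2 is the blue point at -0.40.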

How the data were processed

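The authors made PCR-cDNA libraries for nanopore sequencing, aligned the reads to GRCh38.p14 with minimap2 2.14 and SAMtools 1.13 per the submitters' processing notes, and counted models with TALON on Gencode 44. What the authors deposited were counts of long reads for each model, not normalised. Each unannotated model had at least 5 counts in every siDelta2-4 library, and every model at least 1 count in that group. All 6 count columns were matched to a group by the siRNA in their names, and 0 columns were left out. Rows were chosen by gene symbol and summed per gene identifier. The 8168 annotated genes all matched Gencode 44.

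Genes and models were tested on all rows with the quasi-likelihood test of edgeR 4.0.16 on R 4.3.3 (filterByExpr, TMM scaling, two-sided, Benjamini-Hochberg, called at an adjusted p under 0.1, prior count 2 for log2 CPM), and use of models with diffSpliceDGE. Shares were compared with exact permutation tests. With totals of 1037468 to 1309241 counts, 1 count is close to 1 CPM. The tests were tried on simulated counts. Alternatives were the Wald test of DESeq2 1.42.0, its size factors, scaling by totals, TMM computed after removing ribosomal protein and mitochondrial genes, no filter, a minimum of 10 counts per library, a threshold of 0.05, a loess trend on length removed (span 0.4), known models alone, a block on the column number and each library left out. The sum with opposite-strand genes was chosen after seeing the data. The members and lists were chosen with earlier results of these data known. Named genes were all members, the gene with the most counts and up to 3 called genes in each direction per pathway list, the leading and called models of each member, the copies with the most counts and counted opposite-strand genes. TPM3, MYH9, ANKRD1 and FOS were added after their values were seen. Some genes that the rule would name are not reported here.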

Additional observations from a re-analysis of the deposited data

How the results depend on the processing

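ACTG1 kept its call in all 15 alternatives. TPM1 kept its call in the 14 that gave it an adjusted p. These 14 include the sum with opposite-strand genes, which is not among the 15 of ACTG1. TMSB4X lost its call in 11 of 15. Its log2 fold changes there were 0.19 with DESeq2 and with DESeq2 size factors, 0.20 with TMM without ribosomal protein and mitochondrial genes and with no filter, 0.21 with the replicate block and 0.14 to 0.24 with a library left out. Members called numbered 3 in the main test and 1 under DESeq2, which gave TPM1 no adjusted p. Pathway genes called numbered 5 in the main test, 2 with the length trend removed, 3 with the replicate block, 2 under DESeq2, 3 at an adjusted p under 0.05, and 1 to 8 with a library left out (1 without the siDelta2-4 library of middle total, 2 without that of highest total, 3 without the siControl library of middle total, 8 without that of lowest total). Models of members called fell from 4 to 2 with no filter, and ranged from 2 to 4 with a library left out (2 without the siControl library of middle total or the siDelta2-4 library of highest total). The known share did not overlap in 2 genes, and in 2 to 4 with a library left out (4 without the siControl library of middle total).

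These log2 fold changes, none of them called, changed sign. With the length trend removed ACTB was at -0.0044 and MYL12B at -0.077. With library totals alone CFL1 was at 0.0053, and it was at 0.0537 without the siDelta2-4 library of lowest total. Without the siControl library of lowest total TMSB10 was at -0.0547 and MYL6 at -0.0153, and MYL6 was at -0.0029 without the siDelta2-4 library of highest total. Over the 6 fits with a library left out, TMSB10 ran from -0.0547 to 0.0905, CFL1 from -0.2081 to 0.0537 and MYL6 from -0.0153 to 0.1071. TMSB10 was called with the length trend removed (0.17, adjusted p = 0.0496) and MYL12A with library totals alone (0.22, adjusted p = 0.0836). The share of counts held by the 10 genes differed by 0.147 percentage points, by 0.265 among known models and by 0.192 among annotated genes. The ACTB share of its pair differed by -5.86 percentage points on known models. The causes were not tested.

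With the replicate block on the column number, all genes called went from 504 to 299. Libraries of the same number correlated at 0.039, -0.136 and -0.0843 in their deviations from the group means, so the number was not taken to pair them. Library totals alone gave 361 higher and 152 lower genes, against 272 and 232. The length trend removed gave 202 and 268, DESeq2 93 and 161, and no siControl library of lowest total 554 and 487. At these totals TPM1 rests on 147 counts and 10 models of members had fewer than 3 counts.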
